A study of Saccharomyces cerevisiae S288C with 18 samples.

Results

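The 10 genes described here are the 9 cyclin genes that drive the division cycle of *Saccharomyces cerevisiae* and *SIC1* (YLR079W), which encodes an inhibitor of the B-type cyclin kinases. The cyclins are the G1 cyclins *CLN1* (YMR199W), *CLN2* (YPL256C) and *CLN3* (YAL040C), the S-phase cyclins *CLB5* (YPR120C) and *CLB6* (YGR109C), and the mitotic cyclins *CLB1* (YGR108W), *CLB2* (YPR119W), *CLB3* (YDL155W) and *CLB4* (YLR210W). They were chosen by name, as a view of cell cycle state, from the 6692 named rows of the count table, and all 10 passed the filter on low counts on both sequencing platforms. The lowest count of any of them in any library was 130.

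Cells of strain S288C were grown in RPMI-1640 medium at 30 °C and treated with amphotericin B (AMB), a polyene antifungal that binds ergosterol, with bovine lactoferrin (LF), an iron-binding milk protein, or with both. The AMB group received 0.03 µg/mL AMB for 60 minutes, the AMB-LF group the same AMB concentration plus LF at 2 µg/mL for 50 minutes, and the LF group 2 µg/mL LF for 50 minutes. Each treatment had a control that received no drug for the same time, which gave 6 groups of 3 biological replicates and 18 libraries. No group carried a gene deletion, and the study chose the AMB and AMB-LF durations so that both cultures were inhibited to a like degree. The 12 AMB and AMB-LF libraries, controls included, were sequenced on a HiSeq2000 and held 6799569 to 9696467 counted reads, and the 6 LF libraries were sequenced on a NextSeq and held 23925944 to 30172836. The platforms were analysed separately. By the sample labels, HiSeq lane 2 carried AMB replicate 3, AMB-LF replicates 2 and 3 and control for AMB replicates 2 and 3, and lane 1 carried the rest, among them every control for AMB-LF. The sources disagree on the untreated HiSeq libraries: a plot in the study's supplement assigns all 6 to the opposite control group from the sample labels, and the deposited growth protocol gives the durations of these controls the other way round. The sample labels were used. For the 10 genes, values under the other assignment are given wherever they change a call, and for the other genes of the cycle beside the counts of their lists.

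The labels give no mating type. The type isolate S288C is of the alpha mating type, but transcripts of 5 a-specific genes (*MFA1*, *MFA2*, *STE2*, *BAR1* and *AGA2*) summed to 1531 to 2556 CPM (counts scaled to a common library total) per library. The 4 alpha-specific genes summed to 68.6 to 92.3 CPM, most of it from *SAG1*, and *MF(ALPHA)1*, the main alpha-factor gene, lay between 0.125 and 0.81 CPM. Transcripts of the meiosis genes *IME1*, *IME2*, *NDT80* and *SPO11* summed to 77.2 to 101.3 CPM.

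In budding yeast a single cyclin-dependent kinase, Cdc28, takes a different cyclin at each stage of the cycle. Cln3 acts first in G1 and relieves the repressor Whi5 from the transcription factor SBF, which together with the related factor MBF switches on *CLN1*, *CLN2*, *CLB5*, *CLB6* and the DNA synthesis genes. Cln1 and Cln2 drive budding and mark Sic1 for destruction, which frees Clb5 and Clb6 to start S phase. Clb3 and Clb4 follow, and Clb1 and Clb2 drive mitosis under control of Mcm1 and forkhead factors. *SIC1* transcription rises at mitotic exit. Because these transcripts are periodic, their level in a culture that is not synchronised depends both on the share of cells in each stage and on the RNA per cell, and these cannot be told apart here.

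The promoters of the genes whose transcripts fell under both drug treatments are shown first. They were picked by that outcome, and a relation between motif matches and the changes was not tested. SBF binds the SCB element (searched as CNCGAAA) and MBF the MCB element (ACGCGT), and both strands of the 800 bases before each start codon were searched in the R64 genome. The following windows of 100 bases hold the most matches for *CLN1*, *CLN2* and *CLB6*, with matches to SCB or MCB in capitals, each read 5′ to 3′ on the strand of its gene.
CLN1, chrXIII:662154-662253, plus strand: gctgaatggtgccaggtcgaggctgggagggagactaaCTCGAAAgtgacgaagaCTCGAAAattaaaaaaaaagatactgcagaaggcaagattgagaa
CLN2, chrXVI:67136-67235, minus strand: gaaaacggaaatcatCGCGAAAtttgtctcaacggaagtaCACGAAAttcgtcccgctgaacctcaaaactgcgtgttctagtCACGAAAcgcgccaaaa
CLB6, chrVII:706839-706938, minus strand: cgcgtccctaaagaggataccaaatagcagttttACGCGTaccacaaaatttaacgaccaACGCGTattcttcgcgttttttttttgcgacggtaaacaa

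The Mcm1 core (CC, any 6 bases, GG) and the forkhead core (TAAACA) are not marked above, and *CLN1*, *CLN2* and *CLB6* had matches to both. *CLB2*, called as decreased under AMB and not under AMB-LF, is shown as well and had no SCB or MCB match. *CLB5*, also called under AMB only, had none either and is not shown. The *CLB2* window with the most matches to these cores is shown with them in capitals, the forkhead core on the opposite strand.
CLB2, chrXVI:770876-770975, plus strand: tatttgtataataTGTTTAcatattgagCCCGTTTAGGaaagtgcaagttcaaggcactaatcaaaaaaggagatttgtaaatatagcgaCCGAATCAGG

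In the 800 bases, *CLN1* had 4 matches to SCB or MCB (3 SCB and 1 MCB), *CLN2* had 3 (all SCB), *CLB6* had 2 (both MCB) and *CLB4* had 2 (both SCB). *CLB1* and *SIC1* had 1 SCB match each, and *CLN3*, *CLB2*, *CLB3* and *CLB5* had none. Of 5997 promoters of the same length, 34.8% had at least 1 match to either motif, 7.6% had at least 2 and 1.4% had at least 3. The shorter cores are common: 69.7% of promoters had the Mcm1 core and 52.7% the forkhead core. A match is a string of letters and no measure of binding, and some windows reach into a neighbouring gene.

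**Figure D1:**
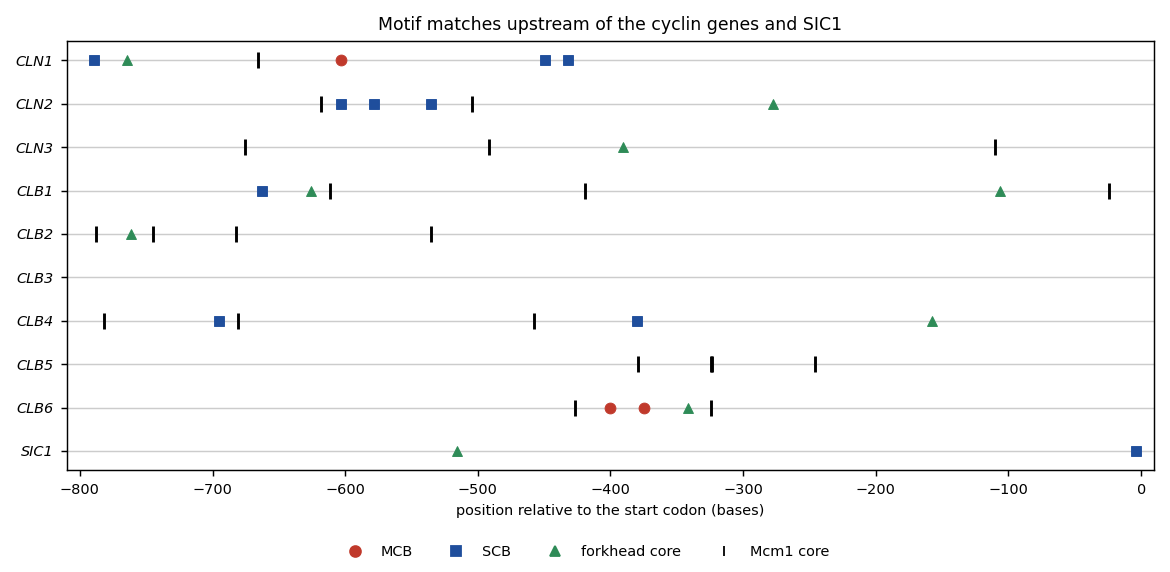
Positions of motif matches on either strand in the 800 bases before the start codon of each gene (x axis, bases relative to the start codon; 1 line per gene; 1 marker shape per motif). *CLN1*, *CLN2*, *CLB4* and *CLB6* have 2 or more SCB or MCB matches, whereas no motif was matched upstream of *CLB3*.

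The members form 4 pairs of related genes. The coding sequences of *CLN1* and *CLN2* were 64.0% identical, those of *CLB1* and *CLB2* 64.3%, *CLB3* and *CLB4* 60.3%, and *CLB5* and *CLB6* 57.9%. No window of the read length (100 bases on the HiSeq, 75 on the NextSeq) in any of the 10 occurred elsewhere in the genome, and no other annotated coding sequence overlapped any of them. *CLB1* and *CLB6* end 307 bases apart on opposite strands of chromosome VII, and *CLB2* and *CLB5* end 746 bases apart on chromosome XVI, while reads were counted within coding sequences only and without regard to strand.

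Per kilobase of coding sequence, *SIC1* was the most abundant of the 10 transcripts in the control for AMB, at 232 ± 7.31 CPM per kb (SD, n = 3). *CLB1* followed at 169 ± 14.4 CPM per kb. *CLN1* (97.6 ± 6.31), *CLB2* (89.4 ± 7.78), *CLN2* (82.8 ± 6.32) and *CLB3* (74.9 ± 4.77) came next in CPM per kb, and the SD ranges of neighbours in this order overlapped. *CLN3* (47.9 ± 3.21) and *CLB5* (40.5 ± 3.05) were lower and separate, and *CLB4* (28.2 ± 2.67) and *CLB6* (25.5 ± 2.30) were lowest, with overlapping SD ranges. *SIC1* and *CLB1* kept the first and second places in all 4 HiSeq groups, and *CLB6* the last. Under AMB the order differed in the middle, where *CLN2* (53.5 ± 5.03 CPM per kb) lay below *CLB3* (66.0 ± 4.38 CPM per kb). In the control for LF, measured on the other platform, *CLB1* (167 ± 51.1 CPM per kb) and *SIC1* (166 ± 23.9 CPM per kb) were highest and within each other's spread, and *CLB6* (25.9 ± 2.30 CPM per kb) was lowest.

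**Figure D2:**
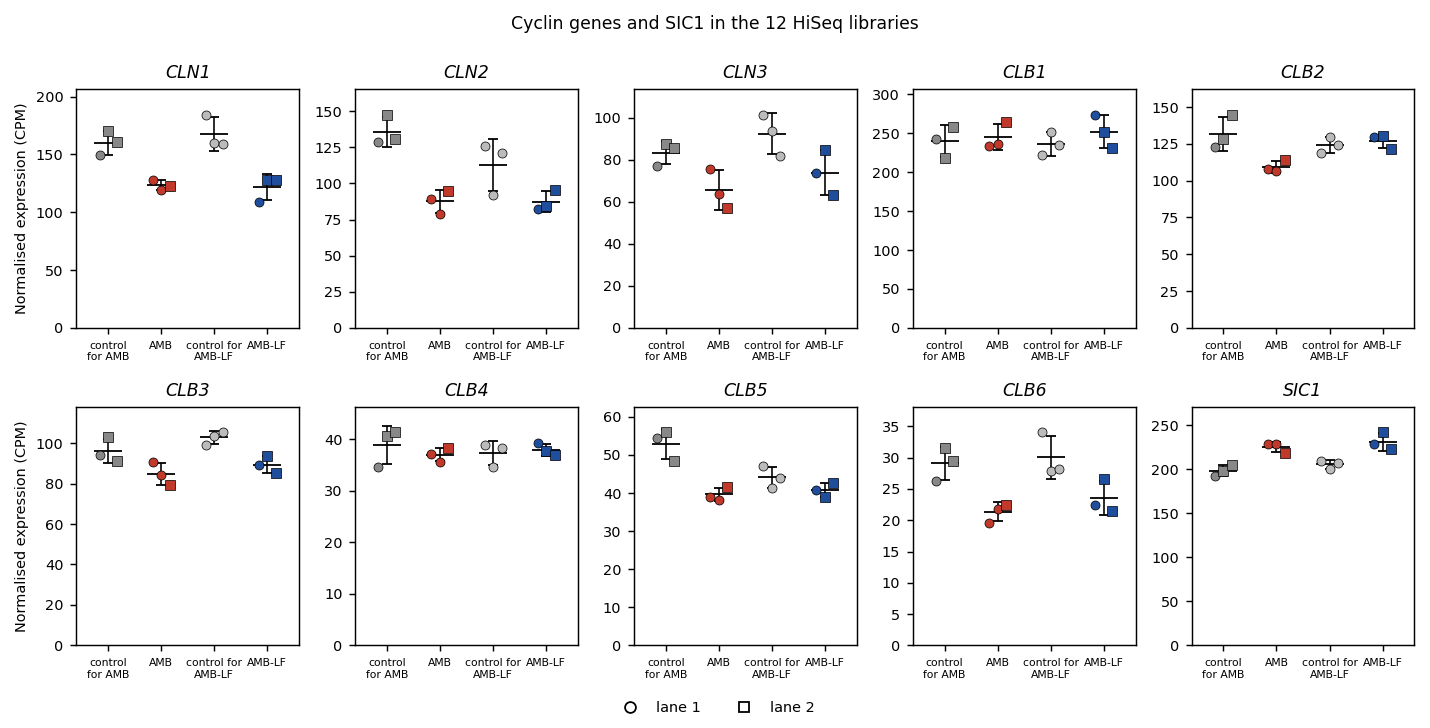
Normalised expression (CPM, y axis from 0) of each gene in the 12 HiSeq libraries, 3 per group, with circles for lane 1 and squares for lane 2; the horizontal bars and error bars are the group mean and SD. *CLN1* and *CLB6* are lower in all libraries of each treated group than in all of its control, and *CLB1* and *CLB4* overlap between all groups.

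The comparison of AMB with its control asks how the cyclin transcripts differed after 60 minutes of AMB. Transcripts of 5 cyclins decreased (*CLN1*, *CLN2*, *CLB2*, *CLB5* and *CLB6*) and that of *SIC1* increased, in the quasi-likelihood test of edgeR, adjusted by Benjamini-Hochberg over 5456 genes, at a threshold of 0.05. The decreases were modest, from 0.842 of the control level for *CLB2* to 0.666 for *CLN2*, and *SIC1* was at 1.14 of its control level. Among all genes tested 37.1% were called (18.7% increased and 18.4% decreased), so that 6 of 10 members stand against a background in which much of the transcriptome moved. The median log2 fold change of the 10 was -0.29, against -0.02 over all genes. In 8 of the 10, the 3 AMB libraries all lay above or all lay below the 3 controls, as was the case in 53.7% of all genes.

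Of the G1 cyclins, *CLN2* was at 89.0, 78.7 and 95.01 CPM in AMB replicates 1 to 3 and at 129, 148 and 131 CPM in the controls. Every AMB library was below every control, and the log2 fold change was -0.59 (SE 0.11, adjusted p = 0.00233). *CLN1* was at 128, 120 and 123 CPM under AMB and at 150, 170 and 161 CPM in the controls, again without overlap. Its log2 fold change was -0.33 (SE 0.077, adjusted p = 0.00658), and without AMB replicate 3 it was -0.24 and no longer called (adjusted p = 0.0707). *CLN3*, the most upstream G1 cyclin, was at 75.7, 64.0 and 56.9 CPM under AMB and at 77.1, 87.5 and 85.8 CPM in the controls. The groups did not overlap, although AMB replicate 1 lay close to control replicate 1, and the log2 fold change of -0.37 (SE 0.13) narrowly missed the threshold (adjusted p = 0.0511). It was called in 9 of 23 alternative analyses.

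Both S-phase cyclins decreased. *CLB5* was at 39.1, 38.2 and 41.6 CPM under AMB and at 54.4, 56.0 and 48.4 CPM in the controls. These groups were well separated, with a log2 fold change of -0.41 (SE 0.085, adjusted p = 0.00337). The result depends on which untreated libraries are the control: against those that the supplement's plot assigns to AMB, the log2 fold change was -0.16 (adjusted p = 0.172). *CLB6*, the least abundant cyclin transcript, was at 19.6, 21.9 and 22.5 CPM under AMB and at 26.3, 31.5 and 29.5 CPM in the controls. The log2 fold change was -0.40 (SE 0.11, adjusted p = 0.0182), and it was not called without AMB replicate 3 (adjusted p = 0.0882), control replicate 1 (0.0628) or control replicate 2 (0.0573).

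The mitotic cyclins did not move as a block. *CLB2*, the main mitotic cyclin, was at 108, 107 and 114 CPM under AMB and at 123, 129 and 145 CPM in the controls. It decreased by 0.25 on the log2 scale (SE 0.070, adjusted p = 0.0165), a call lost without AMB replicate 3 (adjusted p = 0.0554), without control replicate 3 (0.0509) or in a fit of only the 6 libraries compared (0.0568). Its paralog *CLB1* was at 234, 237 and 264 CPM under AMB and at 243, 218 and 258 CPM in the controls, with overlapping groups and a 95% interval of the log2 fold change from -0.18 to 0.23. *CLB3* was at 90.6, 84.2 and 79.4 CPM under AMB and at 94.0, 103 and 91.3 CPM in the controls, with a log2 fold change of -0.19 that was not called (adjusted p = 0.0566). *CLB4* ranged from 35.7 to 38.3 CPM under AMB and from 34.7 to 41.4 CPM in the controls, and its interval was -0.23 to 0.14.

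*SIC1* was at 228.5, 228.9 and 218.5 CPM under AMB and at 192, 198 and 205 CPM in the controls. All AMB libraries were higher than all controls, and the log2 fold change was 0.19 (SE 0.061, adjusted p = 0.0314), the smallest of the changes called. It was called in 14 of 23 alternatives, and it was lost without AMB replicate 1 (adjusted p = 0.0705) or 2 (0.0799) and without control replicate 1 (0.213) or 2 (0.0703). The call was also lost against the other control group (0.117) and in a fit of only the 6 libraries compared (0.0545). It was lost as well in the likelihood ratio test of edgeR (0.0594), with scaling to library size alone (0.0681) and with a replicate block (0.0652).

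Both lanes held AMB and control libraries, with 2 against 1 in lane 1 and 1 against 2 in lane 2. The log2 ratios within lane 1 and lane 2 were -0.62 and -0.55 for *CLN2*, -0.27 and -0.43 for *CLN1*, and -0.49 and -0.33 for *CLB5*. They were -0.34 and -0.44 for *CLB6*, -0.20 and -0.26 for *CLB2*, and 0.25 and 0.12 for *SIC1*. Each called gene thus had the same direction in both lanes. For *CLN3* the lanes gave -0.14 and -0.61.

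The comparison of AMB-LF with its control asks the same of 50 minutes of the combination. *CLN1*, *CLN2* and *CLB6* decreased and no member increased, so that 3 of 10 were called where the share over all genes was 29.2% (14.1% increased and 15.1% decreased). The median log2 fold change of the 10 was -0.15, against -0.01 over all genes. The groups did not overlap for 4 members (*CLN1*, *CLB3*, *CLB6* and *SIC1*), compared with 50.8% of all genes.

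*CLN1* was at 109, 128 and 128 CPM under AMB-LF and at 184, 160 and 159 CPM in the controls for AMB-LF. All treated libraries were well below all controls, and the log2 fold change of -0.55 (SE 0.086, adjusted p = 0.000738) was called in all 23 alternatives. *CLN2* was at 82.1, 84.1 and 95.8 CPM under AMB-LF and at 126, 92.1 and 121 CPM in the controls. Control replicate 2 was low and lay below AMB-LF replicate 3, so that the groups overlapped, and the log2 fold change was -0.47 (SE 0.13, adjusted p = 0.0166). *CLB6* was at 22.5, 26.6 and 21.5 CPM under AMB-LF and at 34.1, 27.9 and 28.2 CPM in the controls, with a log2 fold change of -0.45 (SE 0.12, adjusted p = 0.0189). Without AMB-LF replicate 1, the only lane 1 library of its group, neither *CLN2* (adjusted p = 0.158) nor *CLB6* (0.142) was called. In that fit the treated libraries lay only in lane 2 and their controls only in lane 1. Its lane term thus rested on the AMB libraries and their controls. Without control replicate 1, neither *CLN2* nor *CLB6* was called (adjusted p = 0.0776 and 0.0799). *CLN1* was the only member called in both of these fits. A fit of only the 6 libraries compared had no control in lane 2, so its lane term left AMB-LF replicate 1 against the controls. Its log2 fold changes were -0.47 for *CLN2* and -0.43 for *CLB6*, and they rest on that 1 treated library.

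*SIC1* was at 228, 242 and 223 CPM under AMB-LF and at 210, 200 and 207 CPM in the controls. The groups did not overlap, but the log2 fold change of 0.16 (SE 0.067) was not called (adjusted p = 0.0869). *CLB3* was at 89.0, 93.6 and 85.4 CPM under AMB-LF and at 99.2, 104 and 105 CPM in the controls, with a log2 fold change of -0.19 that was not called (adjusted p = 0.0999). *CLN3* had a log2 fold change of -0.30 (adjusted p = 0.144) with 63.5 to 84.7 CPM under AMB-LF and 82.0 to 102 CPM in the controls. The remaining cyclins overlapped between the groups. *CLB5* was at 38.9 to 42.7 CPM under AMB-LF and 41.4 to 47.0 CPM in the controls (interval -0.33 to 0.08), and *CLB2* was at 122 to 130 and 119 to 130 CPM (interval -0.17 to 0.16). The intervals were -0.12 to 0.33 for *CLB1* and -0.22 to 0.17 for *CLB4*. Only lane 1 held both AMB-LF and control libraries, 1 against 3, and the log2 ratios there were -0.63 for *CLN1*, -0.46 for *CLN2*, -0.42 for *CLB6* and 0.15 for *SIC1*.

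**Figure D3:**
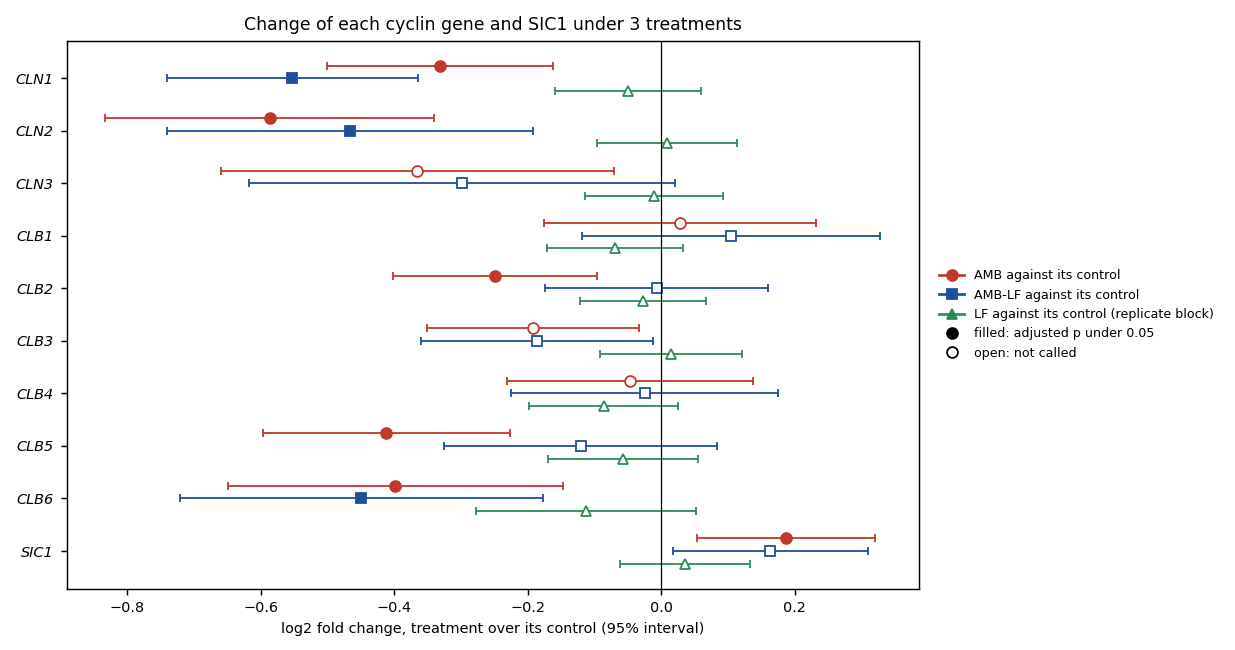
Log2 fold change of each gene over its own control (x axis) with 95% intervals, for AMB (circles), AMB-LF (squares) and LF fitted with the replicate number as a block (triangles); filled symbols are called at an adjusted p under 0.05. *CLN1*, *CLN2* and *CLB6* are called as decreased under AMB and AMB-LF, and no gene is called under LF.

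*CLB2*, *CLB5* and *SIC1* were called under AMB and not under AMB-LF, so the responses were compared in a test of their own. None of the 10 was called in this test, which called 17.5% of all genes, and 1 member and 1791 genes had an unadjusted p under 0.05. DESeq2 and the likelihood ratio test called no member either. The AMB-LF response exceeded the AMB response by 0.24 on the log2 scale for *CLB2* (interval 0.00031 to 0.48, adjusted p = 0.152) and by 0.29 for *CLB5* (interval -0.0014 to 0.58, adjusted p = 0.154). For *CLN1* it was lower by a difference of -0.22 (interval -0.49 to 0.05), and for *SIC1* the difference was -0.02 (interval -0.24 to 0.19). Without the lane term in the fit, *CLB2* was called (0.31, adjusted p = 0.0305). Against exchanged controls no member was called either, and the sign of the difference turned for *CLB5* (-0.22, adjusted p = 0.23), *CLN1* (0.08, adjusted p = 0.635), *CLN2* (-0.22, adjusted p = 0.363, from 0.12), *CLB6* (0.24, adjusted p = 0.325, from -0.05) and *SIC1* (0.09, adjusted p = 0.48).

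The treated groups were also set against each other directly, at 50 and 60 minutes. None of the 10 differed between AMB-LF and AMB by this test, in which 0.33% of genes were called and 1 member and 386 genes had an unadjusted p under 0.05, and the other tools again called no member. That member was *CLB2*, which was higher in all 3 AMB-LF libraries than in all 3 AMB libraries, by 0.20 on the log2 scale (SE 0.070, adjusted p = 0.416). Groups that did not overlap were found in 15.8% of all genes in this comparison. The intervals of the other members show how large a difference remains possible: -0.24 to 0.10 for *CLN1*, -0.30 to 0.20 for *CLN2*, -0.10 to 0.48 for *CLN3*, -0.15 to 0.23 for *CLB5*, -0.16 to 0.35 for *CLB6* and -0.10 to 0.17 for *SIC1*.

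Each response was read against only 1 of the 2 untreated groups, which differed from each other in 31.8% of all genes. No member was called between them by either test of edgeR or by DESeq2, and 1 member and 2326 genes had an unadjusted p under 0.05. This was *CLB5*, at 41.4 to 47.0 CPM in the control for AMB-LF and 48.4 to 56.0 CPM in the control for AMB (log2 difference -0.25, SE 0.092, adjusted p = 0.0558). These groups did not overlap, as was the case in 50% of all genes. Without AMB replicate 3, control for AMB replicate 3 or control for AMB-LF replicate 1 it was called (adjusted p = 0.0479, 0.0228 and 0.0333). *CLN2* was also lower in each control for AMB-LF than in each control for AMB, with a log2 difference of -0.17 (adjusted p = 0.324). The a-specific genes were higher in the same group: they summed to 2384 to 2556 CPM in the control for AMB, 1732 to 2057 under AMB, 1628 to 1768 in the control for AMB-LF and 1872 to 2137 under AMB-LF. This sum, *CLB5* and *CLN2* thus were each highest in the control for AMB, and the part of the a-specific genes' difference in the cyclin results was not tested.

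With the control groups exchanged, as in the supplement's plot, *CLB5* decreased under AMB-LF (-0.37, adjusted p = 0.00514) and was not called under AMB, *SIC1* increased under AMB-LF (0.22, adjusted p = 0.013) and was not called under AMB, and *CLN3* (-0.49, adjusted p = 0.0129) and *CLB3* (-0.27, adjusted p = 0.0119) decreased under AMB. *CLN1*, *CLN2* and *CLB6* decreased under both treatments with either assignment and with all 6 untreated libraries used as 1 control. For *CLB6* under AMB-LF the exchanged controls gave -0.31, at the edge of the threshold (adjusted p = 0.0499). *CLB2* decreased under AMB and not under AMB-LF in these 3 analyses. Against all 6 untreated libraries, *SIC1* increased under both treatments (0.16, adjusted p = 0.0441, and 0.20, adjusted p = 0.0246). *CLB5* was at -0.29 under AMB (adjusted p = 0.0398) and at -0.28 under AMB-LF (adjusted p = 0.063), and *CLN3* (-0.43, adjusted p = 0.0225) and *CLB3* (-0.23, adjusted p = 0.0234) decreased under AMB.

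**Figure D4:**
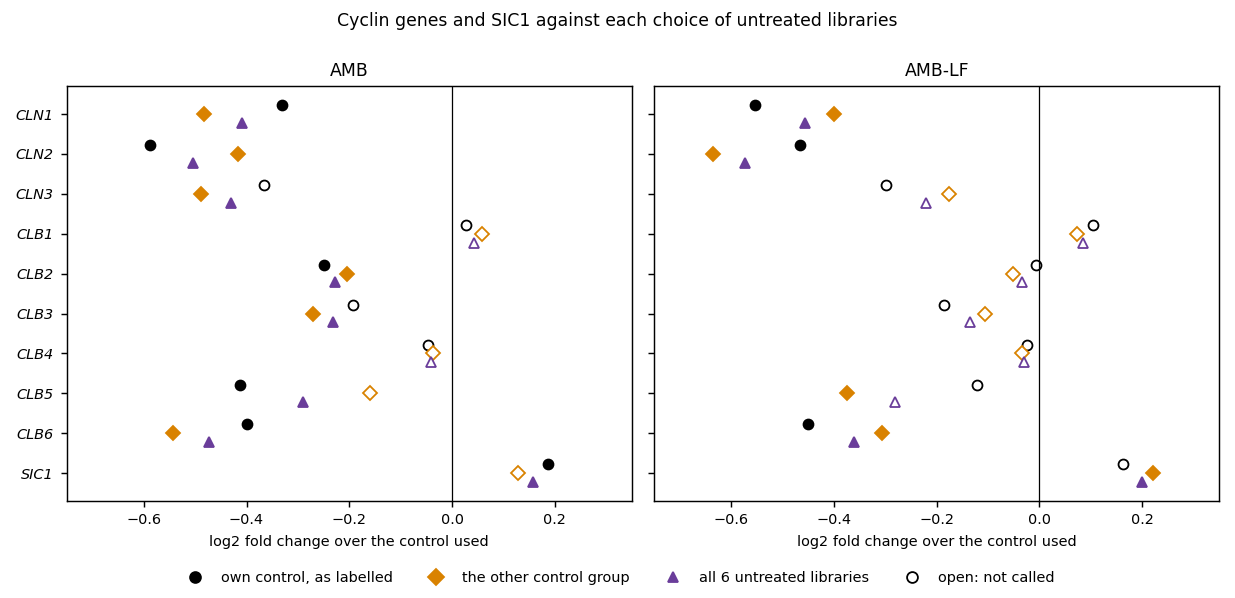
Log2 fold change of each gene (x axis) under AMB (left) and AMB-LF (right) against its own control as labelled (circles), the other control group (diamonds) and all 6 untreated libraries (triangles); filled symbols are called. The signs do not change with the choice of control, while *CLB5* and *SIC1* are called in a different treatment when the control groups are exchanged.

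Across the 12 HiSeq libraries, which fall into 4 groups and are not independent of treatment, log2 CPM of *CLN2* and *CLB5* had a Pearson r of 0.927, *CLN1* and *CLB6* 0.881, *CLN3* and *CLB3* 0.862, and *CLN1* and *CLN2* 0.831. *SIC1* ran opposite to *CLB5* (r = -0.825) and *CLN2* (r = -0.807). The pair *CLB1* and *CLB2* had an r of 0.321. The genes whose pattern over these libraries was most like each member were *CFT2* for *CLN1* (r = 0.968), *ERG6* for *CLN2* (0.961), *BLM10* for *CLN3* (0.914), *ERG3* for *CLB5* (0.968), *LRS4* for *CLB6* (0.958) and *CIN5* for *SIC1* (0.967). For the mitotic cyclins they were *DCG1* for *CLB1* (0.869), *MPF1* for *CLB2* (0.901), *PPQ1* for *CLB3* (0.938) and *SPT10* for *CLB4* (0.876). *ERG6* and *ERG3* encode enzymes of the synthesis of ergosterol, the sterol that AMB binds. The second most similar genes had nearly the same r for *CLN2* (0.96) and *CLB5* (0.965), and a link to sterol synthesis was not tested. Each gene named here has the highest correlation with its member among all genes tested and is given as a description.

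Other genes of the cycle were counted in lists by role. Of 16 targets of SBF and MBF, 6 decreased and 1 increased under AMB, where 18.4% of all genes decreased and 18.7% increased, and 3 decreased and 2 increased under AMB-LF, where the shares were 15.1% and 14.1%. With the control groups exchanged, 7 decreased and 1 increased under AMB, and 3 decreased and 1 increased under AMB-LF. *POL12*, a subunit of DNA polymerase alpha, had the largest decrease under AMB (log2 fold change -0.43, SE 0.11, adjusted p = 0.00964), and *RAD27*, the flap endonuclease of Okazaki fragment processing, under AMB-LF (-0.73, SE 0.14, adjusted p = 0.00263). *RNR1*, the large subunit of ribonucleotide reductase, went the other way under both, with 0.46 (SE 0.12, adjusted p = 0.00981) and 0.83 (SE 0.13, adjusted p = 0.000631). Between the untreated groups, *RAD27* was higher in that for AMB-LF (0.52, adjusted p = 0.0133), and with the control groups exchanged it was called under AMB (-0.83, adjusted p = 0.000396) and not under AMB-LF (-0.21, adjusted p = 0.196). The list median was -0.26 under AMB and -0.14 under AMB-LF.

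Of 8 genes of SBF, MBF and G1 regulators, 1 increased and 1 decreased under AMB, and 1 decreased under AMB-LF. The shares called over all genes were 37.1% and 29.2%. With exchanged controls, 1 decreased under AMB and 1 increased under AMB-LF. *WHI5*, the repressor that Cln3 opposes, increased under AMB (0.30, adjusted p = 0.0356). *WHI3*, which encodes an RNA-binding protein that restrains *CLN3* mRNA, decreased under AMB (-0.23, adjusted p = 0.0187) and AMB-LF (-0.23, adjusted p = 0.0302). With the control groups exchanged, *WHI5* increased under AMB-LF (0.39, adjusted p = 0.00894) and not under AMB (0.05, adjusted p = 0.742), and *WHI3* was not called under AMB-LF (-0.15, adjusted p = 0.0825). The SBF subunit gene *SWI4* was not called under either (0.11 and 0.13). Of 8 genes of the kinase and its partners, 2 decreased under AMB and 2 under AMB-LF, where 18.4% and 15.1% of all genes did, and none increased. *CDC28*, the kinase itself, decreased by 0.19 under AMB (adjusted p = 0.0377) and by 0.33 under AMB-LF (adjusted p = 0.00553). It was also 0.24 higher in the untreated libraries for AMB-LF than in those for AMB (adjusted p = 0.0226). Against exchanged controls, 2 of the 8 decreased under AMB and 1 under AMB-LF. For *CDC28* these controls gave -0.43 under AMB (adjusted p = 0.000383) and -0.09 under AMB-LF (adjusted p = 0.3). *FAR1*, an inhibitor of the Cln kinases, decreased under AMB (-0.49, adjusted p = 0.00334), and *CAK1*, the kinase that activates Cdc28, under AMB-LF (-0.44, adjusted p = 0.0136), with *CAK1* also 0.39 higher in the untreated libraries for AMB-LF (adjusted p = 0.0221). The responses of *FAR1* differed between the treatments by 0.59 (adjusted p = 0.0291), and the untreated groups differed in *FAR1* as well, with a log2 difference of -0.51 for the AMB-LF control over the AMB control (adjusted p = 0.00487). With the control groups exchanged, *FAR1* decreased under AMB-LF (-0.40, adjusted p = 0.00755) and not under AMB (0.02, adjusted p = 0.879), the difference turned to -0.43 (adjusted p = 0.0482), and *CAK1* decreased under AMB (-0.38, adjusted p = 0.0118) and not under AMB-LF (-0.05, adjusted p = 0.749).

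Of 11 genes of cyclin and Sic1 destruction, 4 increased under AMB and 1 under AMB-LF, against 18.7% and 14.1% of all genes, and none decreased. Against exchanged controls, 0 increased under AMB and 6 under AMB-LF. *CDC16*, a subunit of the anaphase-promoting complex, rose most under AMB (0.37, SE 0.062, adjusted p = 0.00104), and *GRR1*, the F-box protein that targets Cln1 and Cln2, rose under AMB-LF (0.22, SE 0.064, adjusted p = 0.0255). With exchanged controls *CDC16* was called under AMB-LF (0.24, adjusted p = 0.00948) and not under AMB (0.16, adjusted p = 0.0627). Of 12 genes of G2/M transcription and mitotic exit, 1 was called under AMB and 1 under AMB-LF, where 37.1% and 29.2% of all genes were. Both calls were increases of *CDC20*, an activator of the anaphase-promoting complex (0.42, SE 0.091, adjusted p = 0.00428, and 0.33, SE 0.10, adjusted p = 0.029). With exchanged controls, 2 increased and 1 decreased under AMB, and 2 increased under AMB-LF. Among these, *CDC20* was called under both (0.46 and 0.30, adjusted p = 0.00238 and 0.0227). Of 9 replication licensing genes, 3 decreased under AMB, where 18.4% of all genes did (*TAH11*, which loads the replicative helicase, -0.23, adjusted p = 0.0364) and 1 increased under AMB-LF, where 14.1% did (*MCM3*, a helicase subunit, 0.31, adjusted p = 0.0149). With exchanged controls 1 decreased under AMB and none was called under AMB-LF, and neither *TAH11* (-0.12, adjusted p = 0.249) nor *MCM3* (0.11, adjusted p = 0.25) kept its call. In the comparison of AMB-LF with AMB no gene of the 6 lists was called.

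With LF alone no member was called. The quasi-likelihood test called 0 of 5445 genes (0%), with 8 genes and no member at an unadjusted p under 0.05, and the likelihood ratio test and DESeq2 called no member. *CLN1* was at 166, 163 and 220 CPM in LF replicates 1 to 3 and at 168, 183 and 216 CPM in the controls. *CLN2* was at 192, 172 and 203 CPM under LF and at 178, 181 and 204 CPM in the controls. *SIC1* was at 129, 144 and 162 CPM under LF and at 121, 142 and 162 CPM in the controls. Taken without regard to replicate number, the groups overlapped for all 10 genes, and did not overlap for 2.96% of all genes.

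Same-numbered LF and control libraries deviated together from their group means, and the study's supplement places the replicates on different days. With the replicate number as a block no gene was called, 418 had an unadjusted p under 0.05 and the smallest adjusted p was 0.309. The block narrowed the intervals of the log2 fold change, to between -0.16 and 0.06 for *CLN1*, -0.10 and 0.11 for *CLN2*, -0.17 and 0.06 for *CLB5*, -0.28 and 0.05 for *CLB6*, and -0.06 and 0.13 for *SIC1*. *CLB1* averaged 153, 283 and 257 CPM over LF and control in replicates 1 to 3, a ratio of 1.86 between the highest and the lowest that exceeded that of 94.7% of genes, while the median gene had 1.19. *CLB3* had 1.05, lower than all but 6.34% of genes. *CLN1*, *CLN3*, *CLB2* and *SIC1* had 1.29 to 1.32. *CLB1*, *CLB2*, *CLB4*, *CLN3* and *SIC1* were each lowest in replicate 1 under both LF and control.

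**Figure D5:**
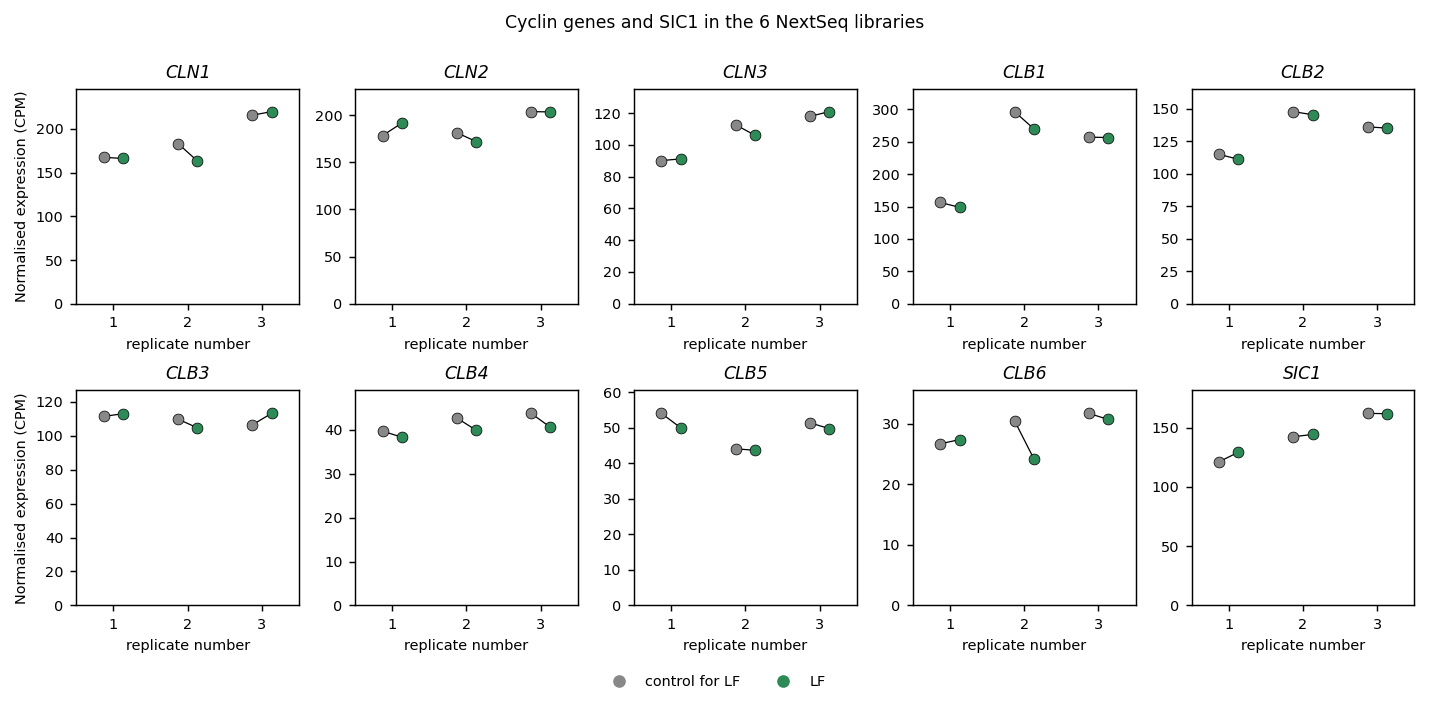
Normalised expression (CPM, y axis from 0) of each gene in the 6 NextSeq libraries by replicate number, with lines joining the control for LF (grey) to LF (green) of the same number. *CLB6* in replicate 2 lies lower under LF (24.2 CPM) than in its control (30.5 CPM), and *CLB1* is lower in replicate 1 (153 CPM on average) than in replicates 2 and 3 (283 and 257 CPM).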

How the data were processed

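The authors aligned the reads by TopHat and Bowtie (genome build R64) and deposited raw counts per gene, made with HTSeq (0.5.3p9 in the submitters' processing notes; the supplement names a later version for the LF libraries) over coding sequences, without strand and without ambiguous reads. Deposited group averages and edgeR results (fold changes, p-values, FDR) were not used. Of 6692 identifiers, 6008 matched the annotation, and the other 684 held 0.3% of counts. A gene was tested if it reached 7 CPM in 6 or more HiSeq libraries (5456 genes) or 3 or more NextSeq libraries (5445 genes). Counts were scaled by TMM, and the quasi-likelihood test of edgeR 4.0.16 (R 4.3.3) was used with lane as covariate for the 12 HiSeq libraries and none for the 6 NextSeq libraries. P-values were adjusted over all genes tested, and intervals are 95%. Alternatives were the likelihood ratio test, DESeq2 1.42.0, other scaling and filters, no lane term, a replicate block, the 6 libraries of a comparison, other controls, and each library left out; a group left with few libraries shares the common spread. The fits were tested on simulated data. Same-numbered LF and control libraries deviated together from their groups (r = 0.881, 0.767 and 0.943 across genes), and the study's supplement places the replicates on different days, so these numbers pair libraries. The members and lists were chosen with earlier results of these data known. Named were all members, the called gene with the largest change per list and direction, and the most similar gene of each member; *CDC28* and *SWI4*, *CDC34*, and values of named genes in other comparisons, were added after they were seen. Motifs and promoters were read from R64. Results for 1 gene and its targets are not reported here.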

Additional observations from a re-analysis of the deposited data

Results flagged for a closer look

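The responses of *FAR1*, *CDC16* and *CDC34* differed between the treatments in the test of the difference itself. *FAR1* had a log2 fold change of -0.49 under AMB and 0.10 under AMB-LF, a difference of 0.59 (adjusted p = 0.0291). *CDC16* increased under AMB by 0.37, and the AMB-LF response differed from this by -0.34 (adjusted p = 0.0379). *CDC34*, the ubiquitin-conjugating enzyme that acts on Sic1, increased under AMB by 0.21 and was at -0.09 under AMB-LF, a difference of -0.30 (adjusted p = 0.0483). These p-values are from the quasi-likelihood test of edgeR, adjusted over all genes tested. The untreated groups differed in these genes as well, with log2 differences of the AMB-LF control over the AMB control of -0.51 for *FAR1*, 0.21 for *CDC16* and 0.24 for *CDC34* (adjusted p = 0.00487, 0.0365 and 0.0154), and none was called between AMB-LF and AMB (0.08, -0.13 and -0.06). With the control groups exchanged, the differences were -0.43 for *FAR1* (adjusted p = 0.0482), 0.08 for *CDC16* (adjusted p = 0.545) and 0.18 for *CDC34* (adjusted p = 0.132), so each turned in sign.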

How the results depend on the processing

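Over 1220 values of single members under the alternatives, 1171 stayed on their side of the threshold (79 of them, all uncalled, with the other sign), 26 became called, 23 lost their call and no called value changed sign. *CLN2* under AMB and *CLN1* under AMB-LF were called in 23 of 23 alternatives. The count of members called under AMB (6) lay between 4 and 8 under other settings and between 3 and 7 with 1 library left out, with 3 reached without AMB replicate 3. Under AMB-LF (3 called) it was 5 without the lane term, 5 with the control groups exchanged and 1 to 3 with 1 library left out. With all 6 untreated libraries as 1 control it was 4. *CLB3* was gained with scaling to library size alone (-0.28, adjusted p = 0.0195), and *CLN3* with a replicate block. The fit of the 6 AMB-LF and control libraries alone rests on 1 treated library, AMB-LF replicate 1, and its count is left out. For the difference between the responses (0 called) it was 1 without the lane term. Between the controls (0 called) it was 1 with RLE size factors, 1 without the lane term and 0 to 1 with 1 library left out. AMB-LF against AMB and LF stayed at 0. The exchange of control groups was not run for AMB-LF against AMB or between the controls. The cause of these shifts was not tested.

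On the HiSeq, same-numbered libraries of a treatment and its control did not deviate together from their group means (r = -0.504 to 0.0411 across genes). These deviations were not adjusted for lane, and the numbers were spread unevenly over the lanes, so they cannot decide whether libraries were paired. With a replicate block 5 members were called under AMB, *SIC1* being lost (0.19, adjusted p = 0.0652), and 4 under AMB-LF, *CLN3* being gained (-0.46, adjusted p = 0.0386). The block changed no call under LF. Scaling to library size alone moved the median gene of the comparison of controls from 0.03 to 0.14, with 1499 genes higher and 731 lower in place of 828 and 906, and in it the uncalled signs of *CLB1*, *CLB2* and *CLB4* turned. For AMB-LF the split became 559 increased and 1296 decreased, in place of 770 and 825, and for the difference 459 and 600 in place of 550 and 407. Depth limits *CLB6* most: its counting error in the 4 HiSeq groups was 6.12% to 8.02% of its level.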
